A study of Mus musculus with 6 samples.

Results

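The genes described here form the amino acid arm of the integrated stress response, the set linked to the transcription factor ATF4, in 3 chromosome-transfer lines of mouse embryonic stem cells. The set was a list of 45 genes, and a gene was counted as measured when the array held a probe set carrying its symbol alone. By that rule 43 of the 45 were measured, among 19938 genes in all. Mars was found under its current symbol Mars1. The probe set for Aars is shared with a second gene, so Aars is not analysed here, and neither is Pycr1.

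The lines carry the names ♂M-1, ♂M-3 and, for the last, ZM-1, whose prefixes the labels do not spell out. Each was measured in 2 biological repeats, giving 6 whole-transcript arrays. All 3 lines were grown on gelatin in LIF, with PD0325901 against MEK and CHIR99021 against GSK3β, so no comparison here sets stressed against unstressed cells. Each line is a single line, and the sources used here do not say what separates its repeats, so p-values measure only the spread between those repeats. Values are the deposited intensities on a linear scale. The 6 arrays had medians between 67.2 and 71.3 over 35556 probe sets. The number of arrays limits the precision.

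Cells short of an amino acid, or with misfolded protein in the endoplasmic reticulum (ER), activate kinases that phosphorylate the initiation factor eIF2. General translation then falls, while upstream reading frames in the Atf4 messenger allow ATF4 protein to be made. ATF4 pairs with C/EBP factors and binds C/EBP-ATF response elements, raising genes for amino acid synthesis and uptake, for tRNA charging and for feedback on the response. In embryonic stem cells the serine and one-carbon branch also feeds nucleotide synthesis and methylation during fast division.

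The letters of that response element were present near the start of part of the set, and they are shown because the genes carrying them did not all differ between lines in the same direction. RefSeq promoter windows, from 250 bases before to 50 bases after a start, were found for 36 of the 43 genes in GRCm38.p6. The motif TGATGNAA was searched on both strands, and no other motif was searched. It was found in 14 of these 36 genes (38.9%), against 1219 of 27025 genes with a window (4.51%). Among the 14 members called higher in ♂M-3 than in ZM-1 all had a window and 7 held the motif, and 7 of the other 22 held it. Stretches are given 5′ to 3′ on the gene's strand, with the matching letters in capitals and all bases before the start. The match begins 193 bases before the start in Chac1, 112 in Herpud1, 110 in Nupr1 and in Atf3, 102 in Got1, 66 and 47 in Slc7a11, and 23 in Asns. Genes with a match that are not shown are Gars, Pck2, Tars and Vldlr, with the match before the start, and Iars, Trib3 and Yars, with it after. The former were not called between ♂M-3 and ZM-1, and the latter were called higher in ♂M-3. A match is a run of letters and was not tested as a binding site.
Chac1, chr2:119351029-119351076, plus strand: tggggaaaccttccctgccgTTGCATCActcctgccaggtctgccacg
Herpud1, chr8:94386297-94386344, plus strand: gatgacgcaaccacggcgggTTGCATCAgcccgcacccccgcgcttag
Nupr1, chr7:126625553-126625600, minus strand: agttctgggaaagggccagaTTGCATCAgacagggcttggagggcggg
Got1, chr19:43524680-43524727, minus strand: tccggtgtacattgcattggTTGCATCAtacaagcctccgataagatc
Atf3, chr1:191183416-191183463, minus strand: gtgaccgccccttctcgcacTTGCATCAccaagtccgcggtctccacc
Slc7a11, chr3:50443633-50443699, minus strand: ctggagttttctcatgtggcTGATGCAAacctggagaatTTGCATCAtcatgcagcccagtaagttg
Asns, chr6:7693210-7693252, minus strand: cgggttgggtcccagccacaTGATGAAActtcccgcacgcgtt

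Most of the set was highest in ♂M-3, by small amounts. The mean of ♂M-3 was the highest of the 3 lines for 34 of the 43 genes, that of ZM-1 for 5 and that of ♂M-1 for 4. Over all genes ♂M-3 was highest for 38.5%, and over the 4985 genes above the 75th percentile of intensity, a class that held 32 of the members, for 50.9%. The 5 genes highest in ZM-1 were Atf3, Cebpb, Vldlr, Slc7a11 and Cth. The 4 highest in ♂M-1 were Atf4, Sesn2, Slc7a3 and Cbs. At an adjusted p below 0.05, 21 members passed the test in at least 1 pair of lines and 22 in none, and no pair of lines differed in a member by as much as 1 log2 unit.

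**Figure D1:**
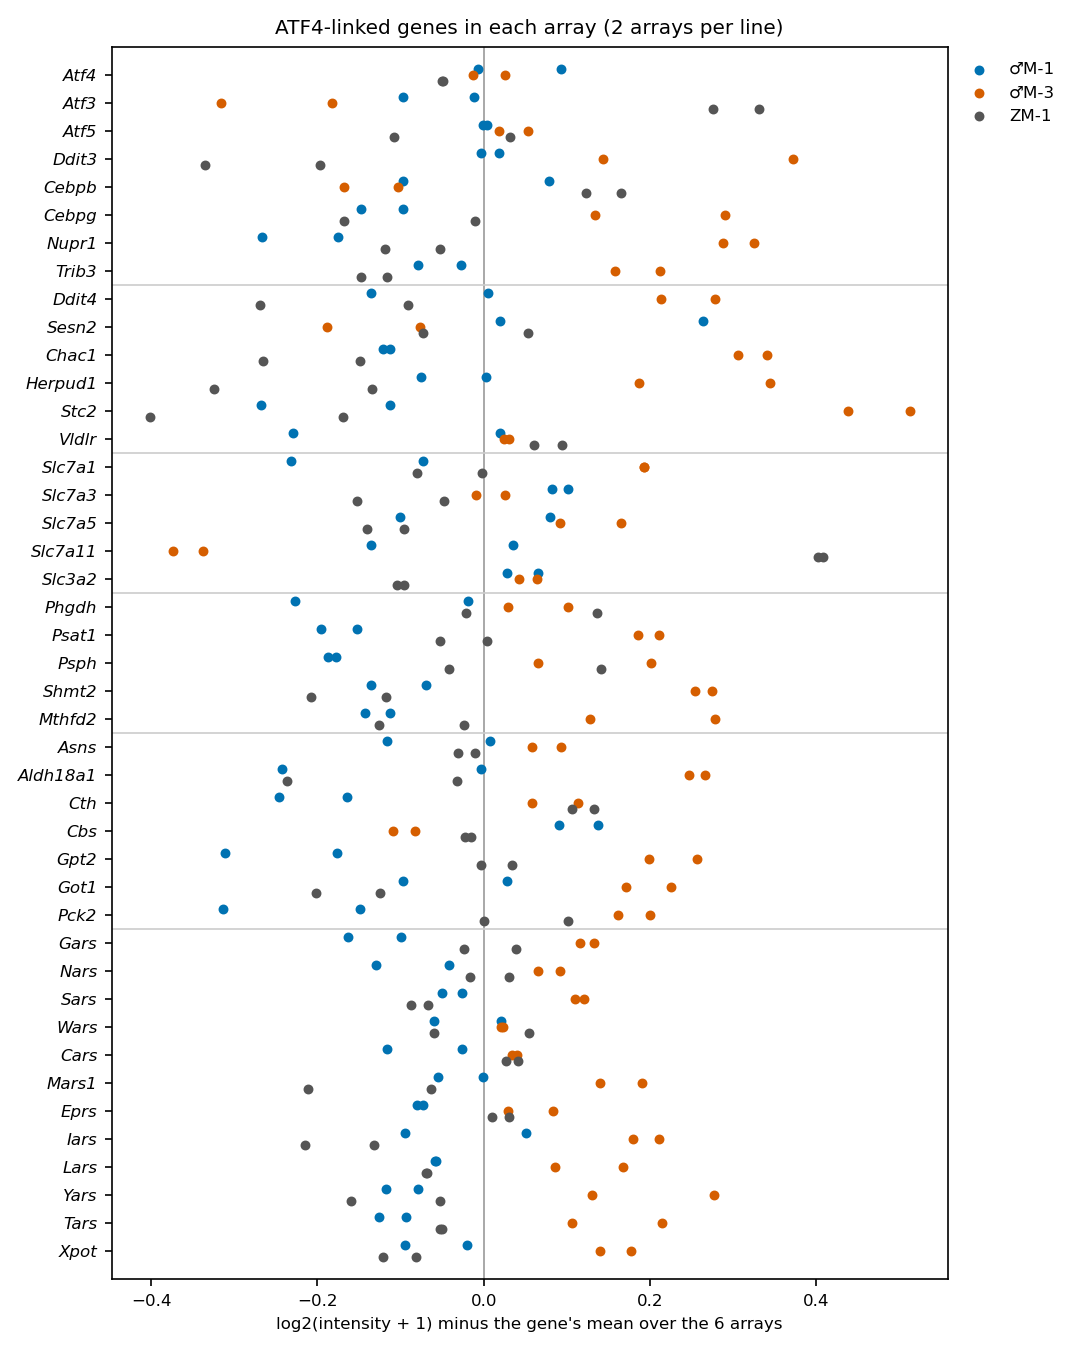
Each point is 1 array, plotted as log2(intensity + 1) minus that gene's mean over the 6 arrays, with the 3 lines in 3 colours and horizontal lines separating the groups by role. The ♂M-3 points lie to the right for most genes, 34 of 43 having their highest line mean there, while Atf3 and Slc7a11 have their ZM-1 points to the right.

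Between ♂M-3 and ZM-1, 14 members were higher in ♂M-3, 2 were lower and 27 did not pass, so that 37.2% of the measured members were called, where 15.9% of all genes were. In the direction of higher expression in ♂M-3, 32.6% of members were called against 8.66% of all genes, and 2 members were lower where 7.2% of all genes were. The higher members spanned feedback regulators, ER and secreted stress proteins, the one-carbon enzyme Shmt2, proline and aspartate enzymes and several tRNA synthetases. The 2 lower members were Atf3 and the cystine transporter Slc7a11. The median log2 difference was 0.20 over the members and 0.00 over all genes, and 36 of the 43 had arrays that did not overlap between these lines, as did 57.5% of all genes. Among the genes above the 75th percentile, added as a second background after the data were seen, 19.7% were called and 14.6% were called higher, with a median of 0.07, against 31.2%, all higher, and a median of 0.20 for the 32 members in that class.

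Without ♂M-3 replicate 1 the count of 16 called members fell to 6, without ♂M-3 replicate 2 to 5 and without ZM-1 replicate 2 to 9. The number of all genes called fell in these fits as well, and the median log2 difference over the members lay between 0.16 and 0.20. The members called under every alternative that included them were Stc2, Chac1, Atf3 and Slc7a11.

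Between ♂M-1 and ♂M-3, 8 members were lower in ♂M-1, none was higher and 35 did not pass. That is 18.6% of the members, where 6.54% of all genes were called, 3.22% higher and 3.32% lower in ♂M-1. The median log2 difference was −0.22 over the members and −0.02 over all genes. The lower genes were Stc2, Nupr1, Gpt2, Chac1, Pck2, Psat1, Shmt2 and Slc7a1. The arrays of these lines did not overlap for 40 of the 43 members, as for 50.5% of all genes. Each of the 8 called members lost its call in at least 1 fit omitting a ♂M array. The median over the members lay between −0.26 and −0.18 log2 units in those fits. A fit to only the 4 arrays of this pair called 12 members, where 7.5% of all genes were called.

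Between ♂M-1 and ZM-1 few members differed: 3 were lower in ♂M-1, none was higher and 40 did not pass. That is 6.98% of the members, where 4.41% of all genes were called, 1.89% higher and 2.53% lower in ♂M-1. Of all genes called in this pair 42.7% were higher in ♂M-1, a share that became 56.5% after median centring of the arrays. The 3 were Slc7a11, Atf3 and the cystathionine lyase Cth, and the median over the members was 0.01 log2 units. The arrays did not overlap for 28 members, as for 48.9% of all genes. Each of the 3 called members lost its call in at least 1 fit with 1 array left out. The median over the members lay between −0.04 and 0.03 log2 units in such fits. The 3 comparisons share lines with one another, so their counts are not independent.

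**Figure D2:**
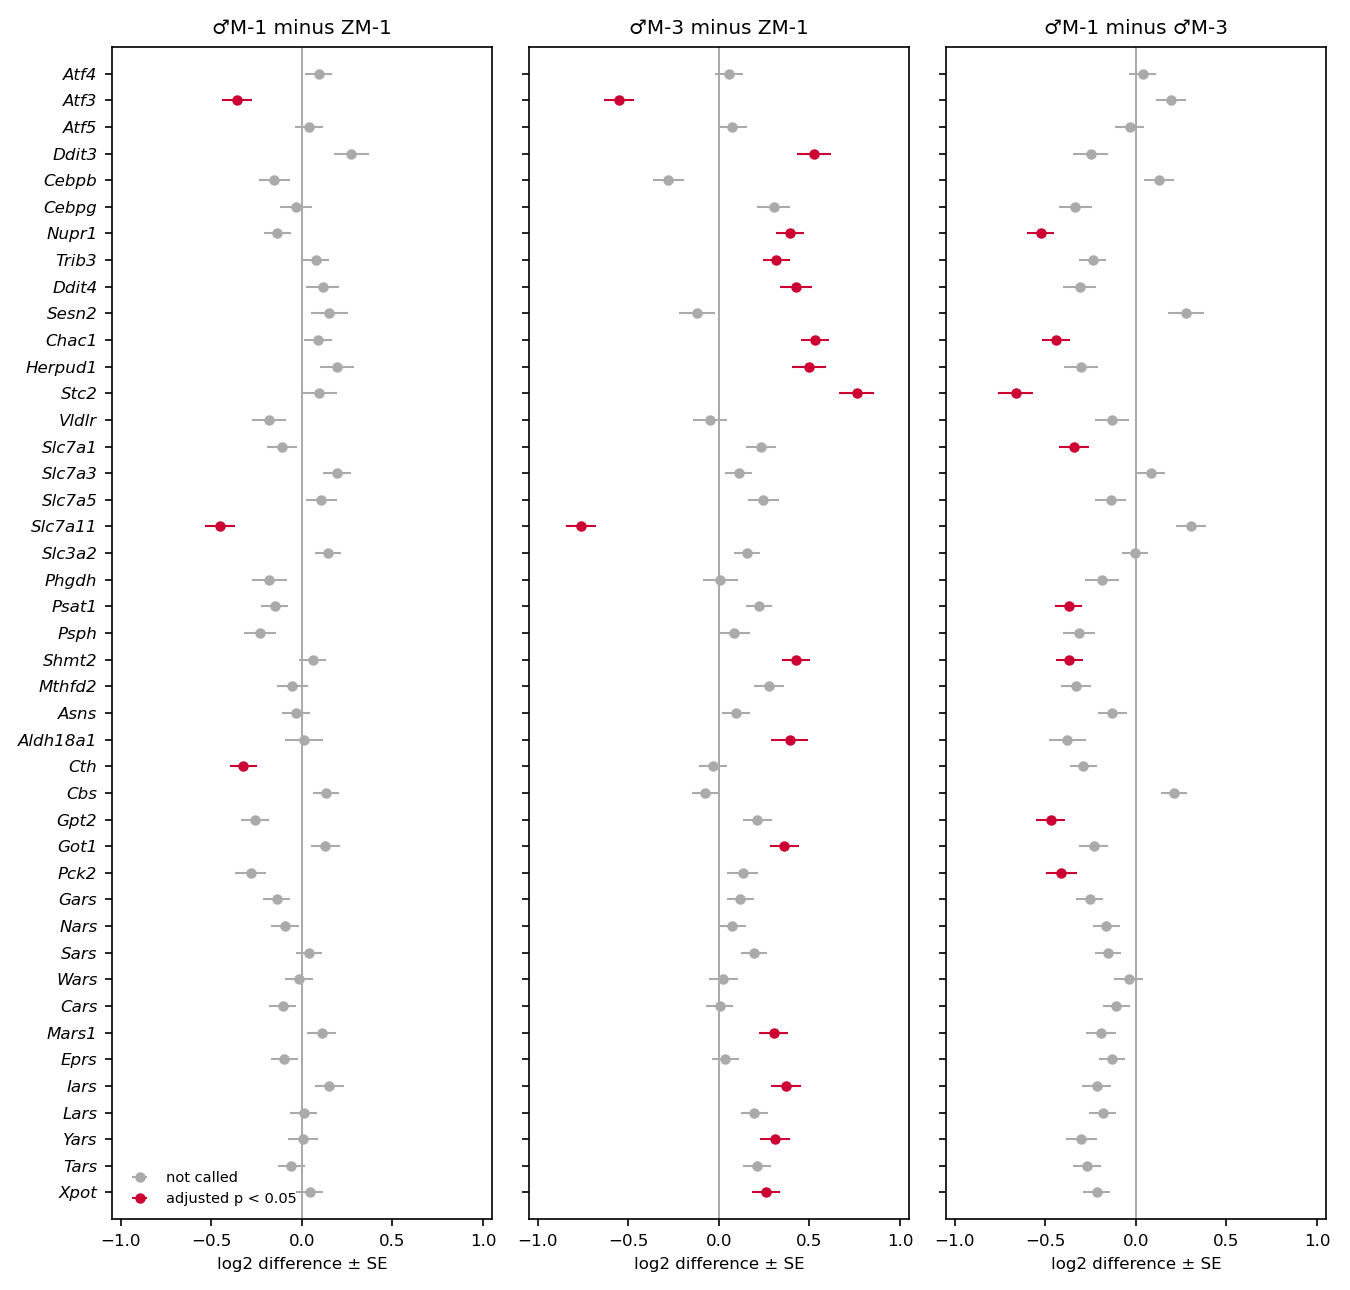
The 3 panels give the log2 difference of each member between 2 lines with its standard error, in red where the adjusted p was below 0.05. Red points number 3 in ♂M-1 minus ZM-1, 16 in ♂M-3 minus ZM-1 and 8 in ♂M-1 minus ♂M-3, and those of the last panel all lie left of 0.

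Of the 8 transcription factors and feedback regulators, 3 were higher and 1 was lower in ♂M-3 than in ZM-1, with a median of 0.19 log2 units. Over all genes 8.66% were called higher and 7.2% lower in this pair. Atf4, the factor for which the response is named, measured 418 and 390.2 in ♂M-1, 389 and 399 in ♂M-3, and 379 and 379 in ZM-1. All 6 values lay close together, and the log2 difference between ♂M-3 and ZM-1 was 0.06 ± 0.08 (SE, adjusted p = 0.680), with adjusted p = 0.555 for ♂M-1 against ZM-1 and 0.860 for ♂M-1 against ♂M-3. ATF4 is controlled largely at translation, and its protein was not measured. Atf5, a related factor with similar translational control, measured between 125 and 140.2 in the 6 arrays and passed in no pair.

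Ddit3 encodes CHOP, a factor induced by ATF4 that promotes cell death under lasting stress. It measured 149 and 146 in ♂M-1, 162 and 190.1 in ♂M-3, and 128 and 116 in ZM-1. The 3 lines did not overlap, with ♂M-3 above ♂M-1 and ♂M-1 above ZM-1. Ddit3 was 1.44-fold higher in ♂M-3 than in ZM-1 (log2 difference 0.52 ± 0.10, SE, adjusted p = 0.00709), a difference which no longer passed when the fit omitted ♂M-3 replicate 2 (adjusted p = 0.0601). The neighbouring steps, ♂M-3 to ♂M-1 and ♂M-1 to ZM-1, did not pass (adjusted p = 0.182 and 0.154).

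Nupr1, a small stress-induced chromatin protein, measured 730.3 and 686 in ♂M-1, 1007 and 1033 in ♂M-3, and 796 and 759.6 in ZM-1. The ♂M-3 arrays lay above the other 4. It was 1.44-fold higher in ♂M-3 than in ♂M-1 (log2 difference of ♂M-1 minus ♂M-3 −0.53 ± 0.08, SE, adjusted p = 0.00475), a difference which no longer passed when the fit omitted ♂M-1 replicate 2 (adjusted p = 0.0585). It was 1.31-fold higher in ♂M-3 than in ZM-1 (adjusted p = 0.0100), not held without ♂M-3 replicate 1 (0.0529) or 2 (0.0736). Trib3, a pseudokinase that binds ATF4 and damps the response, was 1.25-fold higher in ♂M-3 than in ZM-1, at 244 ± 6.56 against 196 ± 3.04 (SD, n = 2). The Trib3 call did not hold in fits omitting ♂M-3 replicate 1 (adjusted p = 0.125) or 2 (0.0840) or ZM-1 replicate 2 (0.0755).

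Atf3, an early stress factor that also answers to signals other than ATF4, went the other way. It measured 238 and 224 in ♂M-1, 192 and 211 in ♂M-3, and 290.3 and 302 in ZM-1. Both ZM-1 arrays lay above all 4 ♂M arrays. Atf3 was 1.47-fold higher in ZM-1 than in ♂M-3 (log2 difference of ♂M-3 minus ZM-1 −0.55 ± 0.08, SE, adjusted p = 0.00260). Against ♂M-1 it was 1.28-fold higher in ZM-1 (adjusted p = 0.0437), a call not held in fits omitting any single array of the 6 (adjusted p from 0.0642 to 0.222) or after median centring (0.0605). Cebpb and Cebpg, C/EBP partners that form dimers with ATF4, passed in no pair. Cebpb measured 124 ± 2.53 in ZM-1 and 102 ± 3.30 in ♂M-3 (SD, n = 2, adjusted p = 0.0543), and Cebpg 166 ± 12.9 and 204 ± 15.7 (adjusted p = 0.0506).

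**Figure D3:**
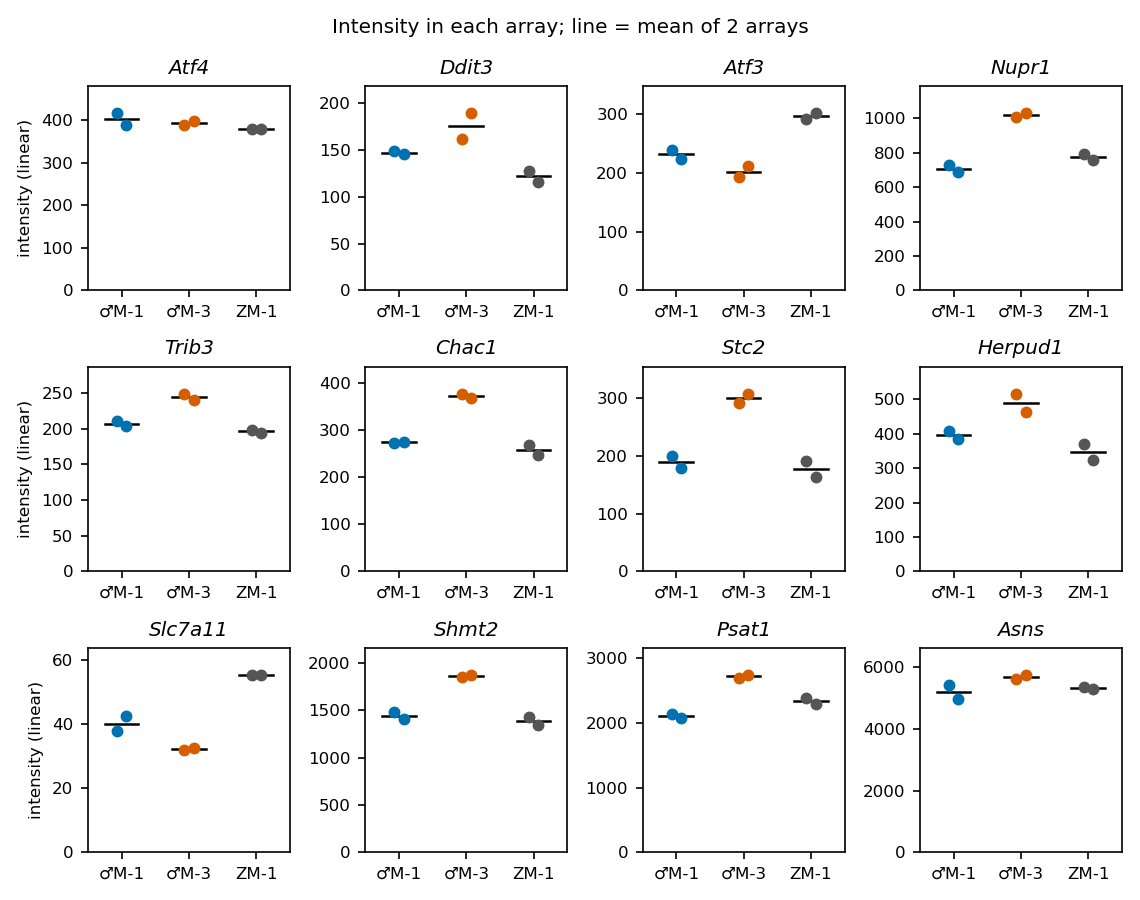
Linear intensity of 12 members in each of the 6 arrays, with a bar at the mean of the 2 repeats of a line and every vertical axis starting at 0. Atf4 and Asns are nearly level across the lines, Nupr1, Chac1, Stc2 and Shmt2 stand highest in ♂M-3, and Atf3 and Slc7a11 stand highest in ZM-1.

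Among the stress effectors and the ER and secreted proteins, 4 of 6 genes were higher in ♂M-3 than in ZM-1. That is 66.7% called, all higher, where 8.66% of all genes were called higher. The group median was 0.46 log2 units. Stc2 encodes stanniocalcin, a secreted glycoprotein induced by ER stress. It measured 199.6 and 179 in ♂M-1, 293 and 308 in ♂M-3, and 192 and 163 in ZM-1. The ♂M-3 arrays lay well apart, while those of ♂M-1 and ZM-1 overlapped. Stc2 was 1.69-fold higher in ♂M-3 than in ZM-1 (log2 difference 0.76 ± 0.10, SE, adjusted p = 0.00138) and 1.59-fold higher than in ♂M-1 (adjusted p = 0.00520). The second call did not hold in fits omitting ♂M-1 replicate 2 (adjusted p = 0.0685) or ♂M-3 replicate 2 (0.0506).

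Chac1, an enzyme that degrades glutathione and a direct target of the response, measured 274 and 276 in ♂M-1, 378 and 369 in ♂M-3, and 269 and 248 in ZM-1. Again ♂M-3 stood above both other lines. Chac1 was 1.44-fold higher in ♂M-3 than in ZM-1 (log2 difference 0.53 ± 0.08, SE, adjusted p = 0.00242) and 1.36-fold higher than in ♂M-1 (adjusted p = 0.0112), the second call being lost without any single ♂M array of the 4 (adjusted p from 0.0614 to 0.0880). Herpud1, which helps to clear misfolded proteins from the ER, measured 407 and 386 in ♂M-1, 516 and 463 in ♂M-3, and 370.3 and 324 in ZM-1. The lines did not overlap, and Herpud1 was 1.41-fold higher in ♂M-3 than in ZM-1 (log2 difference 0.50 ± 0.09, SE, adjusted p = 0.00862), a difference which no longer passed when the fit omitted ♂M-3 replicate 1 (0.0704).

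Ddit4, an inhibitor of the growth kinase mTORC1, measured 841 ± 26.6 in ♂M-3 against 627 ± 54.7 in ZM-1 (SD, n = 2), 1.34-fold higher. It no longer passed when the fit omitted ♂M-3 replicate 1 (adjusted p = 0.0573) or 2 (0.0943) or ZM-1 replicate 2 (0.0686). Sesn2, a leucine sensor that also restrains mTORC1, passed in no pair and had its lowest mean in ♂M-3, at 949.8 ± 52.4 against 1152 ± 138 in ♂M-1 and 1034 ± 64.0 in ZM-1. Vldlr, a lipoprotein receptor, passed in no pair either.

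Of the 5 amino acid transporters, the cystine-glutamate exchanger Slc7a11 was the one that passed against ZM-1 in both ♂M lines. That is 20% called in each pair. Over all genes 15.9% were called in ♂M-3 against ZM-1 (7.2% lower) and 4.41% in ♂M-1 against ZM-1 (2.53% lower). Slc7a11 measured 37.7 and 42.6 in ♂M-1, 31.8 and 32.7 in ♂M-3, and 55.2 and 55.4 in ZM-1. The 3 lines did not overlap. These were the lowest intensities among the members: Slc7a11 was the 1 member below the median gene, at 94.6, and its ♂M-3 values lay just below the lower quartile gene, at 32.8. Slc7a11 was 1.69-fold higher in ZM-1 than in ♂M-3 (log2 difference of ♂M-3 minus ZM-1 −0.76 ± 0.08, SE, adjusted p = 5.01e-04) and 1.37-fold higher than in ♂M-1 (adjusted p = 0.0180). The second call did not hold in fits omitting ♂M-1 replicate 1 (adjusted p = 0.110), ZM-1 replicate 1 (0.0535) or ZM-1 replicate 2 (0.0582).

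None of the other 4 transporters passed against ZM-1. Slc7a1, a carrier of arginine and lysine, was 1.27-fold higher in ♂M-3 than in ♂M-1, at 824 ± 0.323 against 649 ± 50.4 (SD, n = 2, adjusted p = 0.0406). It no longer passed when the fit omitted any single ♂M array of the 4 (adjusted p from 0.0574 to 0.266) and after quantile normalization (0.0502). Slc3a2 and Slc7a5, the chains of the large neutral amino acid exchanger, and Slc7a3, another cationic carrier, passed in no pair. Slc3a2 measured 4384 ± 16.9 in ZM-1 against 4852 ± 88.2 in ♂M-1 and 4875 ± 51.4 in ♂M-3 (SD, n = 2), with adjusted p = 0.303 and 0.195 for the ♂M lines against ZM-1.

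In serine and one-carbon synthesis, 1 of 5 genes was higher in ♂M-3 than in ZM-1 and 2 of 5 were lower in ♂M-1 than in ♂M-3. The first count is 20% called, near the 15.9% of all genes called in that pair in either direction, 8.66% being called higher. The second stands beside 3.32% of all genes lower in ♂M-1. Psat1, the aminotransferase of serine synthesis, measured 2137 and 2074 in ♂M-1, 2699.9 and 2749 in ♂M-3, and 2382 and 2291 in ZM-1. The lines did not overlap, with ♂M-1 lowest. Psat1 was 1.29-fold higher in ♂M-3 than in ♂M-1 (log2 difference of ♂M-1 minus ♂M-3 −0.37 ± 0.07, SE, adjusted p = 0.0193), and leaving out any single array of the 4 ♂M ones took its adjusted p over the threshold (between 0.0693 and 0.140).

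Shmt2, the mitochondrial enzyme that splits serine into glycine and a one-carbon unit, measured 1478 and 1412 in ♂M-1, 1851 and 1877 in ♂M-3, and 1431 and 1344 in ZM-1. It was 1.34-fold higher in ♂M-3 than in ZM-1 (adjusted p = 0.00650, and 0.0520 without ♂M-3 replicate 2). It was 1.29-fold higher in ♂M-3 than in ♂M-1 (adjusted p = 0.0234), lost without any single ♂M array of the 4 (adjusted p from 0.0707 to 0.167). Mthfd2, the mitochondrial folate enzyme that follows it, measured 1268 ± 93.3 in ♂M-3, 1007 ± 14.5 in ♂M-1 and 1045 ± 52.2 in ZM-1 (SD, n = 2), just outside the threshold in both pairs (adjusted p = 0.0504 against ♂M-1 and 0.0536 against ZM-1). Phgdh, which commits a glycolytic intermediate to serine, and Psph, the last enzyme of the branch, passed in no pair.

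In the rest of amino acid metabolism the best known target passed in no pair. Asns, asparagine synthetase, measured 5429.6 and 4981 in ♂M-1, 5621 and 5763 in ♂M-3, and 5361 and 5286 in ZM-1. Its log2 difference was 0.10 ± 0.08 (SE) between ♂M-3 and ZM-1 (adjusted p = 0.456), with adjusted p = 0.861 for ♂M-1 against ZM-1 and 0.419 for ♂M-1 against ♂M-3. Aldh18a1, the entry enzyme of proline synthesis, and Got1, the aspartate aminotransferase of the cytosol, were 1.31-fold and 1.28-fold higher in ♂M-3 than in ZM-1. Neither call held in fits omitting ♂M-3 replicate 1 (adjusted p = 0.135 for Aldh18a1 and 0.105 for Got1) or 2 (0.128 and 0.0722) or ZM-1 replicate 2 (0.149 and 0.0732), nor did that of Aldh18a1 after quantile normalization (0.0572).

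Gpt2, the mitochondrial alanine aminotransferase, measured 528 and 481 in ♂M-1, 685 and 713 in ♂M-3, and 611 and 595 in ZM-1, with ♂M-1 lowest. It was 1.39-fold higher in ♂M-3 than in ♂M-1 (log2 difference of ♂M-1 minus ♂M-3 −0.47 ± 0.08, SE, adjusted p = 0.00961), lost without ♂M-1 replicate 2 (0.0996) or ♂M-3 replicate 1 (0.0539) or 2 (0.0843). Pck2, the mitochondrial enzyme that makes phosphoenolpyruvate, measured 334 and 298 in ♂M-1, 426 and 414 in ♂M-3, and 397 and 370.3 in ZM-1. Here too ♂M-1 was lowest, 1.33-fold below ♂M-3 (adjusted p = 0.0229), a difference which no longer passed when the fit omitted ♂M-1 replicate 2 (0.182) or ♂M-3 replicate 1 (0.140) or 2 (0.111).

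Cth, which makes cysteine from cystathionine, measured 1504 and 1420.2 in ♂M-1, 1823 and 1754 in ♂M-3, and 1848 and 1813 in ZM-1. The ♂M-1 arrays lay below the other 4, and Cth was 1.25-fold higher in ZM-1 than in ♂M-1 (log2 difference of ♂M-1 minus ZM-1 −0.32 ± 0.08, SE, adjusted p = 0.0470). It no longer passed when the fit omitted any single array of the 6 (adjusted p from 0.0834 to 0.227) and after median centring (0.0651). Cbs, the enzyme that precedes it, passed in no pair.

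Among the aminoacyl-tRNA synthetases, which load amino acids onto tRNAs, and the tRNA exporter Xpot, 4 of 12 genes were higher in ♂M-3 than in ZM-1. The other 8 did not pass. That is 33.3% called, all higher, where 8.66% of all genes were called higher. All 12 differences were positive, with a median of 0.19 log2 units and a range from 0.00 to 0.37. Over all genes 50.5% of differences were positive. Among the genes above the 75th percentile of intensity 66% were positive and 14.6% were called higher, with a median of 0.07. Iars was 1.29-fold higher, Yars 1.24-fold, Mars1 1.23-fold and Xpot 1.197-fold. Iars had a second probe set, with a log2 difference of 0.23 where the first had 0.37. Between ♂M-1 and ♂M-3 none of the 12 passed by limma. In that pair 7 of the 12 had an unadjusted p below 0.05, as had 3943 of all 19938 genes. Between ♂M-1 and ZM-1 none of the 12 passed and none had an unadjusted p below 0.05. The levels of Wars, Cars and Eprs did not pass between ♂M-3 and ZM-1, with means of 1174 and 1155, 1011 and 1009, and 1937 and 1889. Without ♂M-3 replicate 1, ♂M-3 replicate 2 or ZM-1 replicate 2 the calls for all of Iars, Yars, Mars1 and Xpot were lost (adjusted p between 0.0661 and 0.227), and those of Yars, Mars1 and Xpot were also lost without either ♂M-1 array (adjusted p between 0.0565 and 0.0619) and after quantile normalization (0.108, 0.0743 and 0.133). Xpot was lost without ZM-1 replicate 1 as well (0.130).

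Upstream of ATF4, the genes for the eIF2 kinases and for eIF2 control had 3 of 17 members higher and 1 lower in ♂M-3 than in ZM-1, with a median of 0.05 log2 units. That is 23.5% called, not far from the 15.9% of all genes. Gcn1, the cofactor through which the kinase GCN2 senses uncharged tRNA on ribosomes, was 1.36-fold higher, at 611 ± 25.2 against 450.2 ± 0.559 (SD, n = 2, adjusted p = 0.00538, and 0.0518 without ♂M-3 replicate 1). Ppp1r15b, a subunit of the eIF2 phosphatase, was 1.30-fold higher, not held without ♂M-3 replicate 1 (adjusted p = 0.0970) or 2 (0.0538) or ZM-1 replicate 2 (0.0594), nor with its 2 probe sets averaged (log2 difference 0.25, adjusted p = 0.0545). The third higher gene was the eIF2 kinase gene Eif2ak3, at 1.24-fold (adjusted p = 0.0304), on which the alternative fits were not run. Eif2ak2, the double-stranded RNA kinase PKR, which is itself interferon-inducible, measured 415 ± 25.04 in ZM-1 (SD, n = 2), 233 ± 8.46 in ♂M-3 and 232 ± 14.9 in ♂M-1. Eif2ak2 was 1.78-fold higher in ZM-1 than in ♂M-3 (adjusted p = 3.64e-04) and 1.79-fold higher than in ♂M-1 (adjusted p = 9.81e-04). Eif2ak2 was the 1 gene of this list called between ♂M-1 and ZM-1 (5.88%, against 4.41% of all genes). Between ♂M-1 and ♂M-3, 0 were called by limma, where 6.54% of all genes were. In that pair 5 of the 17 had an unadjusted p below 0.05, as had 3943 of all 19938 genes.

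Of 17 further genes linked to ATF4 but not in the set, 3 were higher and 2 lower in ♂M-3 than in ZM-1 (29.4% called, against 15.9% of all genes), with a median of 0.06. Slc6a9, a glycine transporter, was 1.44-fold higher, at 364 ± 1.95 against 255 ± 34.6 (SD, n = 2, adjusted p = 0.00783, and 0.0508 without ♂M-3 replicate 1). Aldh1l2, a mitochondrial folate enzyme, was lower in both ♂M lines, at 238 ± 9.12 in ZM-1 against 142 ± 18.3 in ♂M-1 and 140.4 ± 8.48 in ♂M-3 (adjusted p = 0.00450 and 0.00154). Slc43a1, a neutral amino acid carrier, measured 216 ± 9.88 in ZM-1 against 266 ± 2.43 in ♂M-1 and 176 ± 1.29 in ♂M-3, 1.51-fold higher in ♂M-1 than in ♂M-3 (adjusted p = 0.00239). For ♂M-1 against ZM-1 this list had 1 gene higher and 1 lower, and for ♂M-1 against ♂M-3 it had 1 higher and 3 lower.

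The neighbouring one-carbon and threonine genes had 2 of 11 members higher in ♂M-3 than in ZM-1 and 0 lower. That is 18.2% called against 15.9% of all genes in either direction, 8.66% being called higher. Mthfd1l, which releases formate from mitochondria, was 1.36-fold higher, at 758 ± 10.2 against 558 ± 34.97 (SD, n = 2, adjusted p = 0.00608). Mthfd1l was also 1.41-fold higher in ♂M-3 than in ♂M-1 (adjusted p = 0.00714), lost without ♂M-1 replicate 2 (0.0641) or ♂M-3 replicate 1 (0.0505) or 2 (0.0627). Gcat, an enzyme of threonine breakdown, was 1.29-fold higher in ♂M-3 than in ZM-1, not held without ♂M-3 replicate 1 (adjusted p = 0.0554) or 2 (0.0842). The cytosolic tRNA synthetase genes outside the set had 2 of 10 members higher and 0 lower, Vars at 1.28-fold and Farsa at 1.26-fold. Their median was 0.11, with 20% called against 15.9% of all genes in either direction and 8.66% higher. Without ♂M-3 replicate 1 or 2 these 2 calls were lost as well (adjusted p between 0.0637 and 0.153), and that of Farsa also without ZM-1 replicate 2 (0.120) and after quantile normalization (0.0771). The mitochondrial synthetases had 0 of 16 called in ♂M-3 against ZM-1 by limma, with a median of 0.14. Of the 16, 5 had an unadjusted p below 0.05, as had 5980 of all 19938 genes.

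Of 16 ER chaperones and regulators of the other unfolded protein response arms, 0 were higher in ♂M-3 than in ZM-1 and 1 was lower. That is 6.25% called, all lower, near the 7.2% of all genes called lower, while 8.66% of all genes were called higher. The median of the list was −0.06. Dnajc3, an ER co-chaperone, measured 311 ± 6.29 in ♂M-3 against 383 ± 0.877 in ZM-1 (SD, n = 2, adjusted p = 0.0351), a difference which no longer passed when the fit omitted any single ♂M-3 or ZM-1 array (adjusted p from 0.0896 to 0.165). None of the 16 was called in the other 2 pairs by limma, with 2 at an unadjusted p below 0.05 in each. Of all 19938 genes, 3981 had such a p in ♂M-1 against ZM-1 and 3943 in ♂M-1 against ♂M-3.

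Targets of the oxidative stress factor NRF2, a list that includes Slc7a11, had 4 of 9 members lower in ♂M-3 than in ZM-1 and 0 higher, where 7.2% of all genes were lower, with a median of −0.05. Nqo1, a quinone reductase, measured 223 ± 6.52 in ♂M-3 against 324 ± 20.01 in ZM-1 (SD, n = 2), 1.45-fold higher in ZM-1 (adjusted p = 0.00678, and 0.0519 without ♂M-3 replicate 1). Gsr, glutathione reductase, measured 1518 ± 34.3 in ZM-1 against 1166 ± 3.37 in ♂M-1 and 1666 ± 31.7 in ♂M-3, and was lower in ♂M-1 than in ♂M-3 (adjusted p = 0.00423). In ♂M-1 against ZM-1, 2 of the 9 were lower and 0 higher (2.53% of all genes were lower), Slc7a11 and Gsr. The Gsr call did not hold in fits omitting any single ♂M-1 or ZM-1 array (adjusted p from 0.0558 to 0.131). In ♂M-1 against ♂M-3, 1 was higher and 1 lower.

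**Figure D4:**
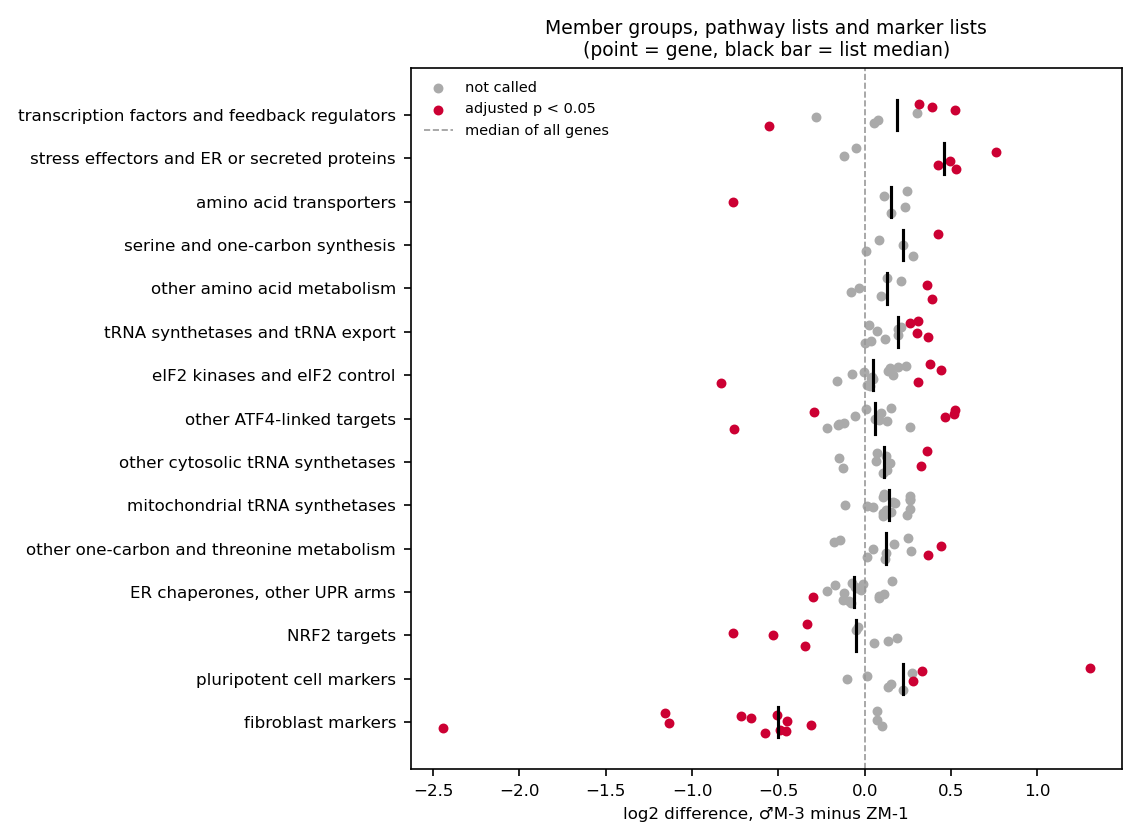
Log2 difference of ♂M-3 minus ZM-1 for each gene (points, red where the adjusted p was below 0.05) in the member groups, the pathway lists and 2 marker lists, with a black bar at each list's median and a dashed line at the median of all genes, 0.00. The 6 member groups have medians between 0.13 and 0.46, the ER chaperone and NRF2 lists lie slightly below 0, and the fibroblast markers lie at −0.50.

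Markers of 5 cell identities were measured beside the stress genes. All 9 pluripotent cell markers lay above the median gene in these cultures. Of the 9, 3 were higher in ♂M-3 than in ZM-1 and 0 lower (8.66% and 7.2% of all genes), with summed intensity between 25357 and 26124 in ♂M-3, 22577 and 22820.0 in ZM-1, and 22305 and 23360 in ♂M-1. The 3 higher pluripotent cell markers were Zfp42 at 2.47-fold, Tfcp2l1 at 1.26-fold and Nanog at 1.22-fold. Of 14 fibroblast markers, 11 were lower in ♂M-3 than in ZM-1 and 0 higher, where 7.2% of all genes were lower. The largest of these differences were in Dcn (5.44-fold), Twist2 (2.23-fold) and Mmp2 (2.19-fold). In ♂M-1 against ♂M-3, 9 were higher and 0 lower, where 3.22% of all genes were higher. In ♂M-1 against ZM-1, 3 were lower and 0 higher, where 2.53% of all genes were lower: the matrix proteoglycan gene Dcn by 2.68-fold, Mmp2 by 1.37-fold and Twist2 by 1.32-fold. Fn1 and Vim, which passed in no pair, made up between 69.5% and 80.7% of the list's summed intensity. The sum lay between 13193 and 13594 in ♂M-3, 14544 and 14613 in ZM-1, and was 14546 in each ♂M-1 array. Over the other 12 markers it lay between 2541 and 2623 in ♂M-3, 4314 and 4456 in ZM-1, and 3806 and 4136 in ♂M-1. By this sum ♂M-3 was lowest and ♂M-1 lay below ZM-1. The ♂M-1 sum includes Dcn, at 214 in ♂M-1 against 571 in ZM-1. Of the 14 differences between ♂M-1 and ZM-1, 7 were positive and 7 negative, with a median of −0.01 log2 units. No marker had an intensity of 0, and Lum, a defining matrix gene, was the 1 marker below the lower quartile gene. For ♂M-3 against ZM-1, 2 of 8 primitive endoderm markers were lower, Lamb1 by 1.66-fold and Pdgfra, also in the fibroblast list, by 1.37-fold. Of 8 trophectoderm markers, Tfap2c was 1.79-fold higher and Krt18 1.503-fold lower, and of 5 neural markers Neurod1 was 2.35-fold lower. The shares called in this pair were 25% of the primitive endoderm list, 25% of the trophectoderm list and 20% of the neural list. Over all genes 15.9% were called. The part of these marker lists in the stress gene differences was not tested, and in these bulk samples fewer cells of a type and less RNA per cell cannot be told apart.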

How the data were processed

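RNA from 3 lines with 2 repeats each was hybridised to mouse whole-transcript gene arrays. The deposited table holds linear intensity values, 1 per probe set and array. The submitters' processing notes name GCOS 1.4, while for background correction and normalization no source used here gives the method. Of 35556 probe sets, 21789 carried 1 gene symbol. Each gene was represented by its brightest probe set on average, giving 19938 genes. Values were analysed as log2(intensity + 1) without further normalization, with no filter. Limma 3.58.1 in R 4.3.3 fitted 1 mean per line to all 6 arrays (3 residual and 6.01 prior degrees of freedom), compared the 3 pairs of lines two-sided, and adjusted over all genes by Benjamini-Hochberg at 0.05. The fit was tested on simulated data. Members, lists and the naming rule (all array values for Atf4, Ddit3, Asns and the 6 largest called differences of each pair, line levels or folds for other called members, up to 3 called genes per pathway list) were chosen with earlier results of these data known. Shmt2 array values, Mthfd2, Cebpb, Cebpg, Sesn2, Slc3a2, Atf5, Wars, Cars, Eprs and Eif2ak3 were named after their values were seen. Alternatives were another pseudocount, filters, normalizations, probe set averaging, fits to the 4 arrays of a pair, a trended prior, a replicate block and leaving out each array. Same-numbered repeats did not deviate together.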

Additional observations from a re-analysis of the deposited data

How the results depend on the processing

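No call among the members or the 13 genes of the pathway lists named by the rule changed direction in the 15 alternatives. These were not run on single genes of the marker lists or on other pathway genes, Eif2ak3 included. The count of called members in ♂M-1 against ZM-1 (3) became 1 after median centring, 1 in the 4 arrays of the pair, 5 with a trended prior and 1 with a replicate block, and lay between 0 and 1 with 1 array left out. In ♂M-3 against ZM-1 (16) it became 25 with a pseudocount of 16, 25 among genes above the 50th percentile and 26 with a trended prior, and lay between 5 and 15 with 1 array left out. In ♂M-1 against ♂M-3 (8) it became 18 with a pseudocount of 16, 16 and 22 among genes above the 25th and the 50th percentile and 23 with a trended prior, and lay between 0 and 12 with 1 array left out. Over all genes, ♂M-1 against ZM-1 (880) became 1632 with a trended prior, and with 1 array left out the counts lay between 234 and 631, between 1302 and 2750 for ♂M-3 against ZM-1 (3162), and between 357 and 1495 for ♂M-1 against ♂M-3 (1303). With 1 array left out, the lone array of its line is assumed to vary like the other lines. Where the member counts rose, the shares of all genes called rose too. For ♂M-3 against ZM-1 (15.9%) they were 19%, 34% and 20.7% in the order given. For ♂M-1 against ♂M-3 (6.54%) they were 8.47%, 10.8%, 18.1% and 9.73%. The member count in ♂M-3 against ZM-1 was 12 after quantile normalization (14.8% of all genes) and 13 in the 4 arrays of the pair (13.8%). Why these counts moved was not tested, beyond the smaller number of arrays or genes in some fits. With the replicate number as a block the member counts of the other pairs were 15 and 8. The deviations of same-numbered arrays from their line means correlated at 0.067, −0.105 and −0.035 over genes, so the numbers were not taken as pairing. A median over the members between 0.12 and 0.22 log2 units held for ♂M-3 against ZM-1 in all scalings tried. Background levels were not used here, and among the members Slc7a11 has the lowest intensity.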
